A study of Mus musculus with 10 samples.

Results

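Cells of a mouse breast cancer line (PyMt) that were grown in the CD4+ T cell supernatant tagged Test3 were compared with cells of the same line grown in the supernatants tagged Test1 and Test2. The comparison used 6 of the 10 RNA-seq libraries of the series, chosen by their titles, with 2 libraries in each tag. The PyMt line comes from a mammary tumor of a C57BL/6 mouse that carries MMTV-PyMt, a transgene that expresses the polyoma middle T oncogene in mammary epithelium. The T cells for the test supernatants came from mice with the MMTV-PyMt transgene and K14-Tslp, a transgene in which a keratin promoter drives TSLP, a cytokine that promotes type 2 helper T cells. They were stimulated outside the animal in repeated rounds with rests between them, and medium was taken as each stimulation ended. The remaining 4 libraries, tagged Control and Blank, are titled as grown in control supernatant, which the labels trace to PyMt tg mice and to Tslp-PyMt tg TslprKO mice, the latter without the TSLP receptor, and they are used here only for their levels. All cultures were kept in low adherence plates with serum and insulin. The labels do not say how Test1, Test2 and Test3 differ, nor what Blank stands for, and nothing states that the 2 libraries of a tag came from separate cultures. The p-values below therefore rest on the spread within a pair of libraries alone, and that spread may be technical. A single cell line stands for the tumor.

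Levels are in FPKM (fragments per length of transcript and per mapped read), and differences are on the log2(FPKM + 1) scale, which understates the change of genes with low levels. Of 17171 genes, 11354 reached 1 FPKM in at least 2 of the 6 libraries and were tested. A gene that passed this filter only through Test3 could be tested only because it was high there. A gene was called when its adjusted p from limma was under 0.05 for Test3 minus the mean of Test1 and Test2. The FPKM of a library summed to between 419709 and 487591. Within a tag, the median absolute log2 difference between its 2 libraries was 0.189 for Test1, 0.187 for Test2 and 0.192 for Test3. The difference between Test3 and the other tags ran with the GC content of the transcripts (Spearman's rho -0.301 over 11198 genes, a description, since genes are not replicates). Single libraries departed from the mean of the 6 in both directions. Their rho with GC content was -0.395 in Test1-1, 0.339 in Test1-2, 0.428 in Test2-1, 0.193 in Test2-2, -0.329 in Test3-1 and -0.106 in Test3-2. With length, rho was largest in size in Test2-1 (-0.539). The part of GC content and length in the results was not tested further than by the alternative in which their trend was removed.

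The breast epithelial label was checked against its markers. All 7 epithelial markers in the table were detected in every library, with Epcam at 4.97 to 8.19 FPKM over the 6 libraries, and the lowest, Cldn7, at 0.84 to 2.30 FPKM. Leukocyte markers (2 in the table) summed to at most 0.51 FPKM and endothelial markers (5) to at most 0.68 FPKM. Other marker sums were above that, in Test3 and then in Test1 and Test2, at 12.6 to 14.4 and 13.3 to 22.6 FPKM for macrophages (8), 12.9 to 14.6 and 14.1 to 18.9 for neutrophils (3), and 6.41 to 7.85 and 6.18 to 12.4 for fibroblasts (9). Among the neutrophil markers Cxcr2, a receptor for CXC chemokines, was at 10.3 and 5.48 FPKM in Test3 and between 2.93 and 3.59 in the others (adjusted p = 0.0434). S100a8 was at 2.52 and 6.11 FPKM against 10.6 to 14.9 (adjusted p = 0.0216). Cxcr2 lost its call when any library other than Test3-2 was left out (0.0795 to 0.258), and S100a8 without Test1-2 (0.0598), Test2-1 (0.105), Test2-2 (0.0816) or Test3-1 (0.0689). T cell markers (7) summed to 46.0 to 66.0 FPKM in Test3 and to 39.0 to 49.6 FPKM in Test1 and Test2, most of it Gata3, which mammary luminal cells also express. Lck, Cd28 and Cd8a were at 0.26 FPKM or less in all 6 libraries, while Cd3d was at 16.7 FPKM in Test3-1 and between 2.25 and 5.67 FPKM in the other 5.

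Animal cells make cholesterol through the mevalonate pathway, whose enzymes are controlled together by the transcription factor SREBP2, and when sterols are plentiful the factor is held in the endoplasmic reticulum and these genes are low. TNF, interleukin 1 and bacterial products release NF-kB from its inhibitors, and NF-kB then raises chemokines, adhesion molecules and its own inhibitors. Interferons act through STAT factors on a further set that includes guanylate-binding proteins and the CXCR3 ligands. Matrix metalloproteinases cut collagens and other matrix proteins, and in cells that have stopped dividing under stress they are part of a secreted mixture called the senescence-associated secretory phenotype.

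In Test3, 239 genes were higher (2.1% of those tested) and 195 were lower (1.72%). A difference of at least 1 on the log2 scale was reached by 121 higher genes (1.07%) and 72 lower genes (0.634%). In contrasts of the same fit against Test1 and against Test2, 87 genes were higher in both (0.766%) and 47 lower in both (0.414%). No gene was called in opposite directions. The 2 contrasts share the Test3 libraries and the pooled spread, so they are not independent of each other. Both Test3 libraries lay above the 4 others for 1625 genes (14.3%) and below them for 1466 (12.9%). Nearly all called genes, 431 of 434, had Test3 libraries outside the range of the others (3.8% of those tested). Leaving out 1 library lowered these counts most for Test3-1 (91 higher and 50 lower), Test2-1 (97 and 57), Test2-2 (102 and 48) and Test1-2 (139 and 81). Removing the trend with GC content and length raised them to 382 higher and 424 lower. A separate fit of Test3 against Test1 alone, without the Test2 libraries, gave 51 and 28.

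**Figure D1:**
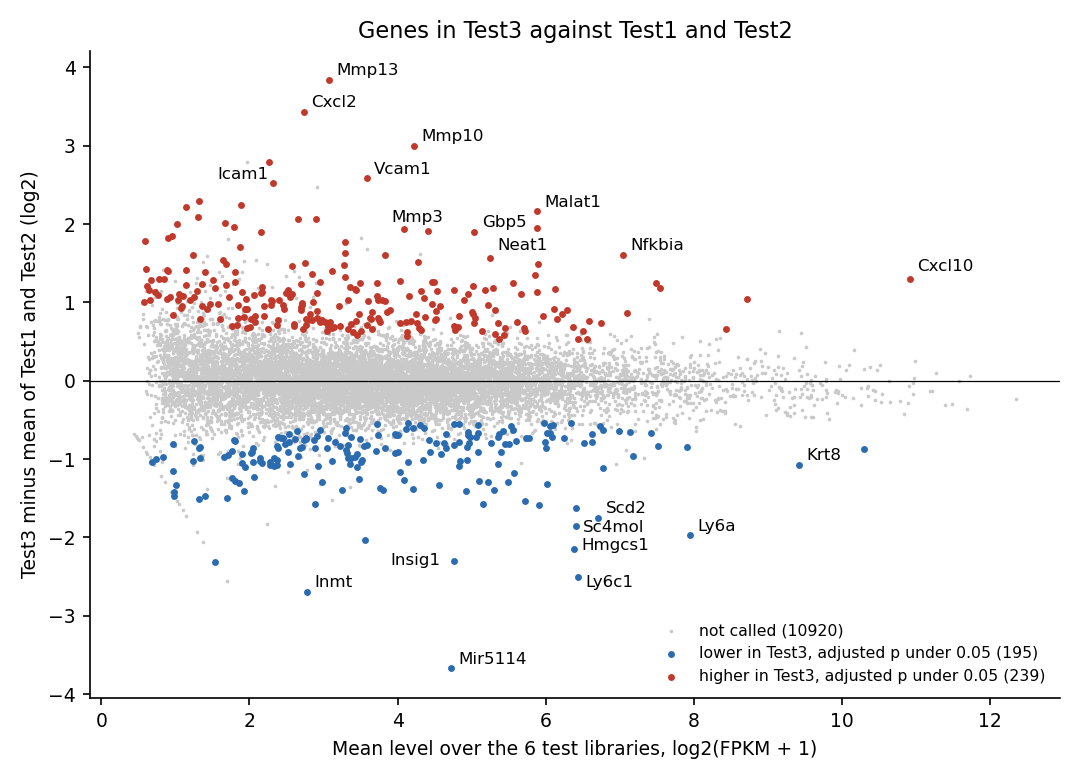
Each point is 1 of 11354 tested genes, with its mean log2(FPKM + 1) over the 6 test libraries on the x axis and Test3 minus the mean of Test1 and Test2 (log2) on the y axis. The 239 genes called higher are red and the 195 called lower are blue. Mmp13, Cxcl2 and Mmp10 lie at the top of the higher genes, and Mir5114, Inmt, Ly6c1, Insig1 and Hmgcs1 among the lowest of the lower genes.

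In the plot of all tested genes, the called genes span levels from near the filter to Cxcl10 and Krt8. Gene groups were then read one by one, each as the number of its tested members that were called, beside the 2.1% and 1.72% of all genes and their median difference of -0.005. Differences in the share of members called between groups were not tested. Some genes belong to several lists, so the counts of the lists are not independent of each other.

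The gene with the largest rise was Mmp13, a collagenase. It lies on chromosome 9, in a cluster of metalloproteinase genes that also holds Mmp10 and Mmp3, the stromelysins. The promoters of these 3 genes are shown because the genes rose together and each holds the same motif, TGANTCA, the binding motif of AP-1 factors (capitals). Shown are the 200 bases before the start of transcription in RefSeq (GRCm38.p6), 5′ to 3′ on the strand of the gene.
Mmp13 (chr9:7272314-7272513, plus strand): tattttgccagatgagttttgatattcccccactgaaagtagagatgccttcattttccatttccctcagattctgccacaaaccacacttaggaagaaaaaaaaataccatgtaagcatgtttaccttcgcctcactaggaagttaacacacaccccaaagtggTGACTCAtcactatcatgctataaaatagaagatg
Mmp10 (chr9:7502142-7502341, plus strand): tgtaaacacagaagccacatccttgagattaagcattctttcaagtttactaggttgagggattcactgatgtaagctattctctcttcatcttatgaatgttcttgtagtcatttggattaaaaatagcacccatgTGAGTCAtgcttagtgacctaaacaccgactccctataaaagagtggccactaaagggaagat
Mmp3 (chr9:7445622-7445821, plus strand): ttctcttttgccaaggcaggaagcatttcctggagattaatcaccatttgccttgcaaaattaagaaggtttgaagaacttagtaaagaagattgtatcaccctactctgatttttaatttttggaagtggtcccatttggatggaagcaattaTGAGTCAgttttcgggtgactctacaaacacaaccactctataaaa
Searched on both strands over the 250 bases before the start, the motif was found in these 3 of the 4 higher members of the metalloproteinase list. Over all 27025 genes with a promoter in the table, 7.82% held it, and over the 9022 tested genes with one, 5.59%. Among the 164 genes called higher that had a promoter, 15.24% held it. Counted from the start of transcription, its first base lies at -35 in Mmp13, at -63 in Mmp10 and at -46 in Mmp3. The match is a description of the letters and not of a bound site.

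Mmp13 was at 5.57 and 6.21 FPKM in Test1, 0.63 and 0.89 in Test2, and 48.6 and 48.7 in Test3. Test3 was thus far above the others, with Test1 between Test2 and Test3. The mean of Test3 was 14.6-fold that of the other 4 libraries, and the log2 difference was 3.84 (SE 0.14, adjusted p = 1.15e-05). In the Control and Blank libraries Mmp13 was between 0.31 and 0.57 FPKM. Mmp10 was at 14.3 and 12.2 FPKM in Test1, 5.01 and 5.38 in Test2, and 71.3 and 76.6 in Test3, in the order of the tags seen for Mmp13 (log2 difference 2.998, SE 0.13, adjusted p = 2.51e-05). Mmp3 was at 15.7 and 18.1 FPKM in Test1, 9.87 and 9.16 in Test2, and 42.8 and 59.7 in Test3 (log2 difference 1.91, SE 0.16, adjusted p = 0.000585). All 3 genes were also higher in Test3 than in Test1 alone, and they were called in each alternative at the threshold of 0.05. Of the 14 tested metalloproteinases and inhibitors, 4 were higher (median 0.32), the fourth being Adamts1, a protease that cleaves proteoglycans (1.24, SE 0.14, adjusted p = 0.0028). Its call was lost when the 4 other libraries were treated as 1 group (adjusted p = 0.0679) and against Test1 alone (0.0944). Timp1, an inhibitor of these enzymes, was at 426 and 596 FPKM in Test3 and between 490 and 1045 in Test1 and Test2, and the ranges overlap (-0.41, SE 0.22, adjusted p = 0.343).

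Genes that NF-kB controls were higher in Test3. Of 34 tested members of the TNF and NF-kB list, 18 were higher and none lower, with a median of 0.65. This count was 10 when only members called with any 1 library left out were taken, and 5 for Test3 against Test1 alone. Ccl20, Ch25h and Cd40 among the 18 passed the filter only through Test3, and members below the filter were not tested. The promoters of Cxcl2 and Ccl20, chemokines for neutrophils and for CCR6-positive lymphocytes, and of Nfkbia, the inhibitor that holds NF-kB in the cytoplasm, are shown because they hold the motif of NF-kB, GGG and TTTCC with any 2 bases between them (capitals, on either strand) in the 200 bases before the start (RefSeq, GRCm38.p6).
Cxcl2 (chr5:90903699-90903898, plus strand): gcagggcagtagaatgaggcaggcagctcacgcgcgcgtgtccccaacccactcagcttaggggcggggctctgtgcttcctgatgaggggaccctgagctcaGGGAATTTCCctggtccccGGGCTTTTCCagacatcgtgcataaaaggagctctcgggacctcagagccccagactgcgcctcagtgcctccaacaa
Ccl20 (chr1:83116566-83116765, plus strand): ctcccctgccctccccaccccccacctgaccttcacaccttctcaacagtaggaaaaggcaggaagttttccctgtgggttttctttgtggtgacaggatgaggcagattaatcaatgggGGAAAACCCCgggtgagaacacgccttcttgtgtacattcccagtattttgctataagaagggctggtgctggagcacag
Nfkbia (chr12:55492648-55492847, minus strand): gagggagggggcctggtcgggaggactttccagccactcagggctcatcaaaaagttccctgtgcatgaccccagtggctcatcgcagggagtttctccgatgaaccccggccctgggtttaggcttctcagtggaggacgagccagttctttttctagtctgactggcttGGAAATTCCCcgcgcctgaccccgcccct
Of the 18 higher members, 12 had a promoter in the table and 5 of these held the motif in the 250 bases before the start, with Tnfaip3 and Il6 as the others. The share was 1.65% over all 27025 genes and 1.87% over the 9022 tested genes. It was 6.1% over the 164 genes called higher that had a promoter. Other spellings of the motif were not searched.

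Cxcl2 was at 2.68 and 4.51 FPKM in Test1, 0.81 and 1.24 in Test2, and 29.7 and 33.6 in Test3. Its mean was 13.7-fold higher in Test3, where both libraries were above all others (log2 difference 3.44, SE 0.19, adjusted p = 0.000132). Ccl20 was at 0.10 and 0.90 FPKM in Test1, 1.06 and 0.10 in Test2, and 6.08 and 6.43 in Test3 (2.30, SE 0.30, adjusted p = 0.00556). A gene of this level rests on few reads outside Test3. Ccl20 passed the filter only through its Test3 libraries, so its p-value is not independent of that filter. The inhibitor gene Nfkbia was abundant in every library, at 121 and 111 FPKM in Test1, 76.3 and 63.7 in Test2, and 277 and 274 in Test3 (1.61, SE 0.13, adjusted p = 0.000567). Of 18 tested CXC and CC chemokines, 9 were higher and 1 was lower (median 0.89), and 7 of the 9 were called with any 1 library left out. Among the 9, Cxcl2, Ccl20, Ccl5, Ccl7 and Cxcl5 are also counted in the NF-kB list. The lower chemokine, the eosinophil attractant Ccl11, was below 0.1 FPKM in both Test3 libraries and at 0.79 to 2.38 in the others (adjusted p = 0.0335), and without Test2-2 its adjusted p was 0.128, without Test2-1 0.11, without Test3-1 0.104, without Test1-2 0.0569 and without Test3-2 0.0526.

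Vcam1 and Icam1, adhesion molecules for leukocytes and members of the same list, were higher. Vcam1, which binds integrins of lymphocytes and monocytes, was at 7.63 and 7.45 FPKM in Test1, 3.59 and 4.69 in Test2, and 40.5 and 37.0 in Test3 (6.64-fold, log2 difference 2.59, SE 0.14, adjusted p = 0.000125). Icam1, the ligand of LFA-1, was at 1.99 and 2.58 FPKM in Test1, 1.25 and 1.52 in Test2, and 13.7 and 16.6 in Test3 (8.26-fold, 2.53, SE 0.16, adjusted p = 0.000182). In the Control libraries Icam1 was at 1.26 and 1.12 FPKM, and in Blank at 0.06 and 0.12. For Icam1, Test2 was close to Control, Test1 lay above both, and Test3 stood above all 8 other libraries.

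Tnfaip3 and Birc3, further members of that list known as NF-kB targets, were higher as well. Tnfaip3, which encodes the ubiquitin-editing enzyme A20, was at 63.4 and 58.0 FPKM in Test3 and between 18.8 and 34.5 in the 4 others (log2 difference 1.16, adjusted p = 0.00275). Birc3, a ubiquitin ligase of the TNF receptor complex, was at 20.4 and 17.7 FPKM in Test3 and between 5.00 and 9.72 in the others (1.25, adjusted p = 0.00298). Against Test1 alone neither was called (adjusted p = 0.0665 for Tnfaip3 and 0.0666 for Birc3). Fas, the death receptor, was at 24.6 and 32.8 FPKM in Test3 and between 8.51 and 15.5 in the others (1.27, adjusted p = 0.00357; 0.095 against Test1 alone). Of 20 tested genes of the TNF receptor superfamily and its adaptors, 5 were higher and none lower, and 2 of the 5 (Tnfrsf11b and Fas) stayed called whichever library was left out. Cd40 among the 5 passed the filter only through Test3, so its p-value is not independent of that filter. The receptors of TNF and interferon gamma were not among the called genes. Tnfrsf1a, the main TNF receptor, was at 43.9 and 56.5 FPKM in Test3 and between 54.1 and 94.6 in the others (-0.58, adjusted p = 0.0946), and Ifngr1 was at 12.7 and 16.6 FPKM against 13.1 to 15.1 (0.05, adjusted p = 0.891).

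Secreted cytokines were called in both directions, but all those whose calls held with any 1 library left out were higher. Of 30 tested cytokines and growth factors of the secretory phenotype, 5 were higher and 2 lower (median 0.14), and 3 of the 7 (Il6, Il1a and Ereg) stayed called whichever library was left out. Il1a, the alpha form of interleukin 1, was at 2.87 and 2.13 FPKM in Test1, 0.65 and 0.88 in Test2, and 6.72 and 7.43 in Test3 (1.70, SE 0.17, adjusted p = 0.00161; 0.0537 against Test1 alone). Ereg, a ligand of the EGF receptor, was at 7.97 and 6.33 FPKM in Test1, 4.29 and 4.95 in Test2, and 18.9 and 20.8 in Test3 (1.63, SE 0.15, adjusted p = 0.000847). Il6 was at 42.3 and 43.1 FPKM in Test1, 18.0 and 20.9 in Test2, and 53.8 and 61.5 in Test3, so that the tags were ordered without overlap, but the gap from Test1 was small (0.97, SE 0.13, adjusted p = 0.00566; 0.305 against Test1 alone). Tslp itself, made by the tumor cells too, was at 84.0 and 89.2 FPKM in Test1, 39.0 and 35.8 in Test2, and 29.6 and 36.8 in Test3. It was lower in Test3 than the mean of the others (-0.77, adjusted p = 0.0189), while Test3 and Test2 overlap, and the call was lost without Test1-2 (0.0547), Test2-1 (0.0798), Test2-2 (0.0614) or Test3-1 (0.203).

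The study chose 14 genes of the senescence-associated secretory phenotype on these libraries, so their direction is not independent evidence. Of the 11 that were tested, 10 were higher in Test3 than in Test1 and Test2 (median 2.02) and Timp1 was not called. Ccl20, Ch25h and Cd40 among the 10 passed the filter only through Test3. For 8 of the 10 the call held with any 1 library left out, and for 5 it held in each alternative. The order Test2, Test1, Test3 of the means was shared by Mmp13, Mmp10, Mmp3, Cxcl2, Il1a, Il6 and Ch25h. For Ccl20 the mean of Test2 was above that of Test1. How often this order occurs among all called genes was not counted.

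**Figure D2:**
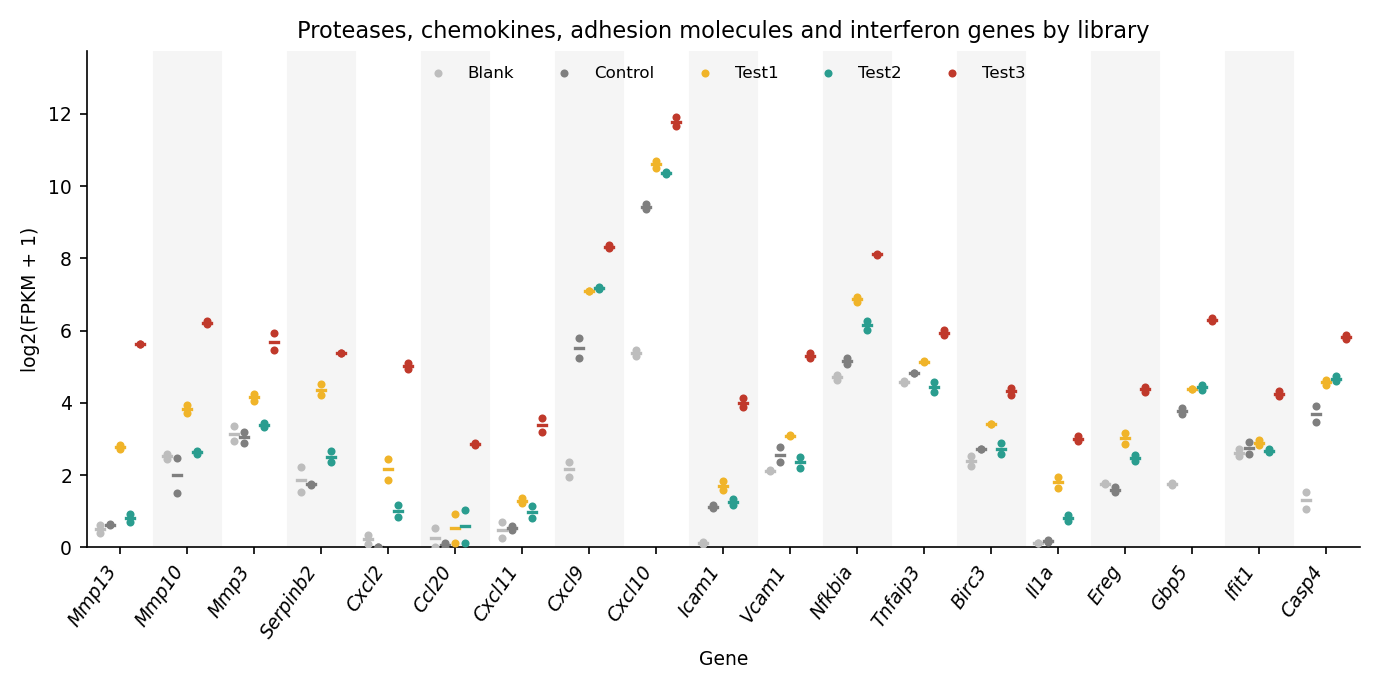
For each of 19 genes the points give log2(FPKM + 1) of every library in the tags Blank, Control, Test1, Test2 and Test3 (2 libraries each), and the bar is the mean of the 2. Test3 lies above Test1 and Test2 for each of the 19, and for Mmp13, Mmp10, Mmp3, Cxcl2 and Serpinb2 Test1 lies between Test2 and Test3.

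Serpinb2, an inhibitor of plasminogen activators that is plotted with them, was at 22.0 and 17.5 FPKM in Test1, 4.13 and 5.35 in Test2, and 40.4 and 41.1 in Test3. Test1 lay between Test2 and Test3 without overlap. Its log2 difference was 1.94 (SE 0.15, adjusted p = 0.000478), and it was not called against Test1 alone (0.0522) or with the 4 others as 1 group (0.112).

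A subset of the interferon genes was higher. Of 44 tested members of the interferon list, 11 were higher and 1 lower (median 0.30), and 5 of the 11 were called with any 1 library left out. Of these, Cxcl9, Cxcl10 and Cxcl11 are also counted among the chemokines. Gbp5, a guanylate-binding protein that acts in inflammasome assembly, was at 19.8 and 19.9 FPKM in Test1, 19.4 and 21.8 in Test2, and 80.3 and 75.7 in Test3 (3.86-fold, log2 difference 1.90, SE 0.12, adjusted p = 0.000182). Here Test1 and Test2 were level and only Test3 stood apart. Cxcl10, the most abundant ligand of CXCR3 in these cells, was at 1448 and 1667 FPKM in Test1, 1332 and 1286 in Test2, and 3218 and 3831 in Test3 (1.30, SE 0.17, adjusted p = 0.00626; 0.0764 against Test1 alone). Its level was 664 and 721 FPKM in Control and 38.0 and 43.1 in Blank. Cxcl9 was at 329 and 311 FPKM in Test3 and between 137 and 146 in Test1 and Test2 (1.18, adjusted p = 0.00175), and Cxcl11 at 10.9 and 8.09 FPKM against 0.77 to 1.57 (2.24, adjusted p = 0.000585).

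Other interferon genes differed in the same comparison or did not pass the test. Ifit1, an antiviral RNA-binding protein, was at 17.4 and 19.0 FPKM in Test3 and between 5.22 and 6.85 in the 4 others (1.47, SE 0.13, adjusted p = 0.000847), and between 4.78 and 6.58 in Control and Blank. Casp4, the caspase that senses cytoplasmic lipopolysaccharide, was at 53.7 and 58.3 FPKM against 21.7 to 25.7 (1.21, adjusted p = 0.00165). It is counted with the BCL2 family and caspases and not in the interferon list. Irf1, a transcription factor that interferon induces, was at 313 and 319 FPKM against 234 to 271 (0.33, SE 0.12, adjusted p = 0.189). Of 19 tested genes of class I antigen presentation none was higher and 1 was lower, a call that was lost without single libraries.

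The largest group of lower genes was that of sterol synthesis. Of 33 tested genes of sterol and fatty acid synthesis, 20 were lower and none higher, with a median of -1.17. Over the alternatives, between 14 and 26 were lower, 16 were called with any 1 library left out, and 14 in each alternative. Promoters of 3 members with different positions in the pathway are shown: Hmgcs1, which makes the precursor of mevalonate, Idi1, the isomerase of the isoprene units, and Cyp51, which removes a methyl group from lanosterol. Capitals mark CCAAT on either strand, the motif of NF-Y, a partner of SREBP2, and in Hmgcs1 also TCACNCCAC, the sterol regulatory element (200 bases before the start, RefSeq, GRCm38.p6).
Hmgcs1 (chr13:119690151-119690350, plus strand): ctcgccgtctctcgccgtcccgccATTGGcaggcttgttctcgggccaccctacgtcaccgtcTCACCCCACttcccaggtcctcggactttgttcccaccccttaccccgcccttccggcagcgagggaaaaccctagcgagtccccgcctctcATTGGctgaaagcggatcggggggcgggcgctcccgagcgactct
Idi1 (chr13:8885406-8885605, plus strand): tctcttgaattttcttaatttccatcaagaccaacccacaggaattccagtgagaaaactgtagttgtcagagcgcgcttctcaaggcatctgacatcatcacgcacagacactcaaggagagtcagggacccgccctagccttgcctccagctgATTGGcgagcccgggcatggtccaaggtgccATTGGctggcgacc
Cyp51 (chr5:4104698-4104897, minus strand): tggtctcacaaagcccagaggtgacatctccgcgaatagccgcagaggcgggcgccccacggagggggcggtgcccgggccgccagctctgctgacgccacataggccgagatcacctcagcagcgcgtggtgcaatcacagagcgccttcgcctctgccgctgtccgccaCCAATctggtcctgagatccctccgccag
Of the 20 lower members, 13 had a promoter in the table. All 13 held CCAAT in the 250 bases before the start, against 37.49% of all genes and 41.19% of the tested genes with a promoter. Among the 139 genes called lower that had a promoter, 53.24% held it. Only Hmgcs1 held TCACNCCAC in that window, against 1.22% of all genes and 1.17% of the tested ones, and other spellings of the element were not searched.

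Enzymes from the first to the last steps of the pathway were lower. Hmgcs1 was at 126 and 121 FPKM in Test1, 139 and 159 in Test2, and 32.3 and 27.7 in Test3 (4.54-fold lower, log2 difference -2.14, SE 0.13, adjusted p = 0.000182). Both Test3 libraries were below all 8 others, since Hmgcs1 was at 60.6 and 61.2 FPKM in Blank and 111 and 133 in Control. Mvd, a decarboxylase of the mevalonate branch, was at 13.9 and 16.6 FPKM in Test1, 22.4 and 19.4 in Test2, and 4.11 and 3.12 in Test3 (-2.04, SE 0.15, adjusted p = 0.000421). Idi1 was at 35.3 and 33.4 FPKM in Test3 and between 81.5 and 94.5 in the 4 others (-1.32, SE 0.12, adjusted p = 0.000847), with Blank at 34.2 and 30.7, a range that meets that of Test3. Among the later enzymes, Sqle, the squalene epoxidase, was at 39.4 and 39.3 FPKM against 110 to 138 (-1.62, adjusted p = 0.000399), and Cyp51 at 26.3 and 29.9 FPKM against 80.6 to 92.6 (-1.58, adjusted p = 0.000478). Msmo1, a sterol methyl oxidase named Sc4mol in the table, was at 34.8 and 35.3 FPKM against 106 to 151 (-1.85, adjusted p = 0.000182).

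Genes of sterol feedback and transport were lower as well. Insig1, which retains SREBP in the endoplasmic reticulum and is itself an SREBP target, was at 35.6 and 37.1 FPKM in Test1, 57.1 and 54.1 in Test2, and 9.79 and 7.12 in Test3 (5.44-fold lower, -2.30, SE 0.14, adjusted p = 0.000182). Stard4, a sterol carrier, was at 6.58 and 6.08 FPKM against 14.98 to 22.1 (-1.40, adjusted p = 0.00351). Srebf2, the gene of SREBP2, was at 38.8 and 46.1 FPKM against 64.1 to 87.4 (-0.86, SE 0.16, adjusted p = 0.0268), and its call was lost without Test1-2 (0.0562), Test2-1 (0.0717), Test2-2 (0.103) or Test3-1 (0.21).

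The fatty acid branch was mixed. Scd2, a stearoyl-CoA desaturase, was at 46.7 and 44.7 FPKM in Test3 and between 118 and 188 in the 4 others (-1.75, SE 0.15, adjusted p = 0.000847). Fasn, the fatty acid synthase, was at 27.0 and 28.0 FPKM in Test3 and between 26.4 and 38.1 in the others, which overlap (-0.21, SE 0.18, adjusted p = 0.559). Acaca, the acetyl-CoA carboxylase, was at 17.1 and 16.6 FPKM against 11.4 to 17.7 (0.16, SE 0.14, adjusted p = 0.548). Srebf1, whose product controls this branch, was at 13.8 and 16.4 FPKM against 17.1 to 26.2 and was not called (-0.48, SE 0.18, adjusted p = 0.179). Ch25h, the enzyme that makes 25-hydroxycholesterol, a sterol known to hold SREBP2 back, moved the other way: it was at 0.25 and 0.95 FPKM in Test1, 0.20 and 0.06 in Test2, and 3.85 and 6.90 in Test3 (2.22, SE 0.26, adjusted p = 0.00352; 0.0595 against Test1 alone). In Control and Blank it was at 0.11 FPKM or listed at 0. Ch25h passed the filter only through its Test3 libraries, so its p-value is not independent of that filter. Sterols were not measured, and any link between Ch25h and the lower genes was not tested.

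**Figure D3:**
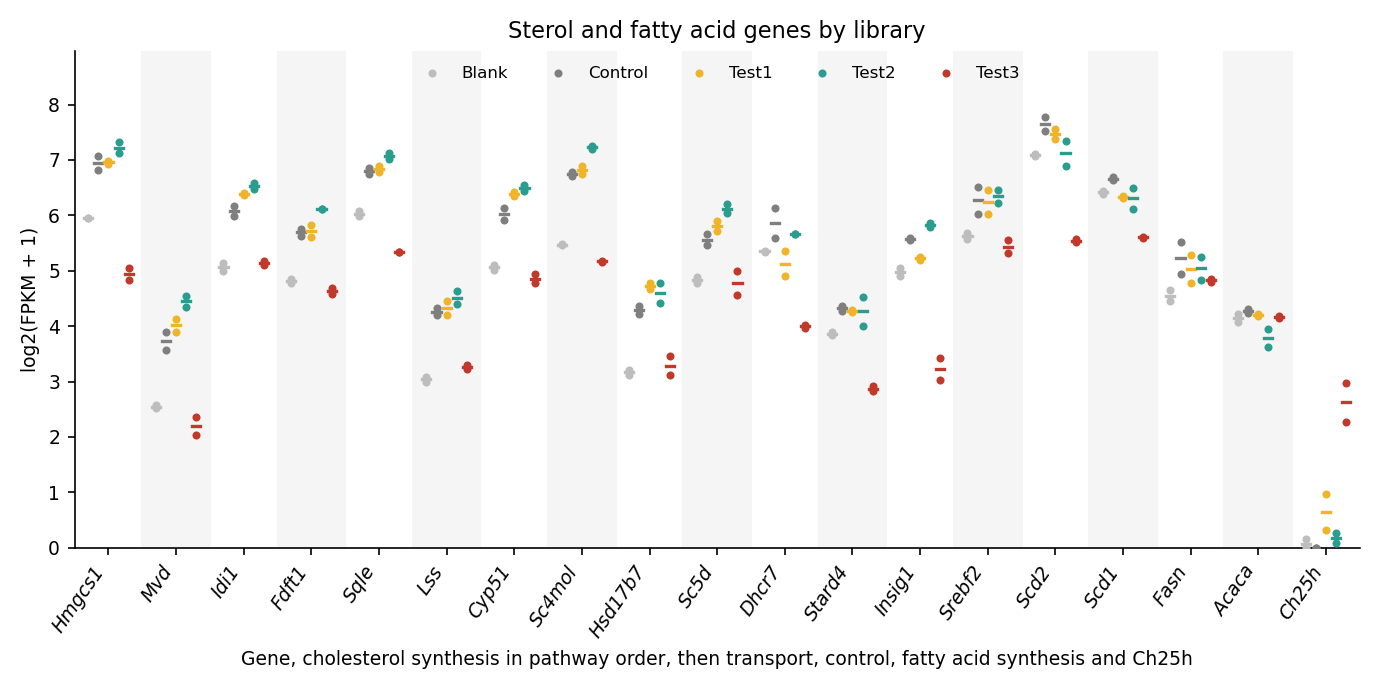
For genes of sterol and fatty acid synthesis and Ch25h, the points give log2(FPKM + 1) of every library in the tags Blank, Control, Test1, Test2 and Test3 (2 libraries each), and the bar is the mean of the 2. Hmgcs1 and Insig1 lie lowest in Test3, Fasn and Acaca of Test3 lie within or close to the range of the others, and Ch25h is highest in Test3.

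Of the 32 long noncoding RNAs that were called, 31 were higher. Of 315 tested lncRNA genes, 31 were higher (9.84%) and 1 was lower, while of 10825 tested protein-coding genes 193 were higher (1.78%) and 191 lower. The number of higher lncRNAs was 10 without Test2-1, 9 without Test2-2, 7 without Test3-1 and 49 without Test3-2, and it was 6 against Test1 alone and 35 of 280 once the trend with GC content and length was removed. Malat1, a nuclear RNA of splicing speckles, was at 34.3 and 27.0 FPKM in Test1, 46.6 and 33.5 in Test2, and 175 and 144 in Test3 (4.51-fold, log2 difference 2.16, SE 0.17, adjusted p = 0.000552). Neat1, the RNA on which paraspeckles are built and the neighbor of Malat1 on chromosome 19, was at 26.0 and 22.2 FPKM in Test1, 27.3 and 26.2 in Test2, and 89.8 and 66.6 in Test3 (3.08-fold, 1.57, SE 0.15, adjusted p = 0.00122). In Control and Blank, Malat1 was between 35.9 and 62.3 FPKM and Neat1 between 29.3 and 37.3, so that Test3 was above all 8 other libraries for both. The median GC content was 45.96% in the genes called higher, 52.86% in those called lower and 50.12% in all tested genes.

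Among the largest differences were 3 genes whose calls were lost without single libraries. Mir5114, a microRNA gene, was at 0.92 and 11.1 FPKM in Test3 and between 33.8 and 110 in the 4 others (-3.67, SE 0.67, adjusted p = 0.0227), and the call was lost without Test2-2 (0.0899) or Test1-2 (0.0616). The homeobox gene Rhox8 was at 21.3 and 12.8 FPKM in Test3 and between 0.48 and 5.91 in the others (2.80, adjusted p = 0.0225), with an adjusted p of 0.105 without Test2-1, 0.0961 without Test2-2 and 0.106 without Test3-1. AF357399 was at 18.7 and 12.6 FPKM against 1.41 to 4.61 (2.07, adjusted p = 0.0103; 0.0567 without Test3-1).

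Epithelial and surface genes were among the lower ones. Krt8, the keratin of luminal cells, was at 826 and 845 FPKM in Test1, 986 and 854 in Test2, and 375 and 461 in Test3 (-1.07, SE 0.16, adjusted p = 0.00914; 0.1 without Test3-1). Its partner Krt18 was at 730 and 967 FPKM in Test3 and between 1382 and 1882 in the others, and although the ranges do not overlap the call (adjusted p = 0.04) was lost without Test1-1 (0.0818), Test1-2 (0.117), Test2-1 (0.117), Test2-2 (0.0774) or Test3-1 (0.326). Krt80, another keratin, was at 2.94 and 2.27 FPKM against 6.91 to 12.6 (-1.57, SE 0.18, adjusted p = 0.00275). Krt8 and Krt18 make up most of the summed epithelial markers. The sum stood at 1242 to 1579 FPKM in Test3 and 2345 to 3103 in Test1 and Test2. In Blank it was 1476 and 1393 FPKM, inside the range of Test3, and in Control 2933 and 2903. Krt18 in Blank, at 807 and 754 FPKM, also lay within the range of Test3. Of 17 tested genes of epithelial adhesion and keratins, 3 were lower and 1 higher, of which the higher Krt16 stayed called whichever library was left out. Of 20 tested genes of the mesenchymal state 1 was higher, a call that was lost without single libraries.

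Ly6a, the stem cell antigen Sca-1, was at 265 and 318 FPKM in Test1, 577 and 462 in Test2, and 88.3 and 110 in Test3 (-1.97, SE 0.16, adjusted p = 0.000585). Its relative Ly6c1 was at 99.2 and 128 FPKM in Test1, 225 and 193 in Test2, and 22.2 and 30.8 in Test3 (-2.51, SE 0.17, adjusted p = 0.000283). Both were highest in Test2 and lowest in Test3. In Blank they were also low, at 86.4 and 88.2 FPKM for Ly6a and 36.6 and 35.7 for Ly6c1. Genes of the Ly6 family resemble each other, and how reads that fit several of them were counted is not given in the sources used here. Inmt, an N-methyltransferase of indole amines, was at 7.53 and 13.1 FPKM in Test1, 13.9 and 13.8 in Test2, and 1.46 and 0.57 in Test3 (-2.70, SE 0.24, adjusted p = 0.000847), below all 8 other libraries. Ly6a, Ly6c1, Inmt and Krt80 were called in each alternative.

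**Figure D4:**
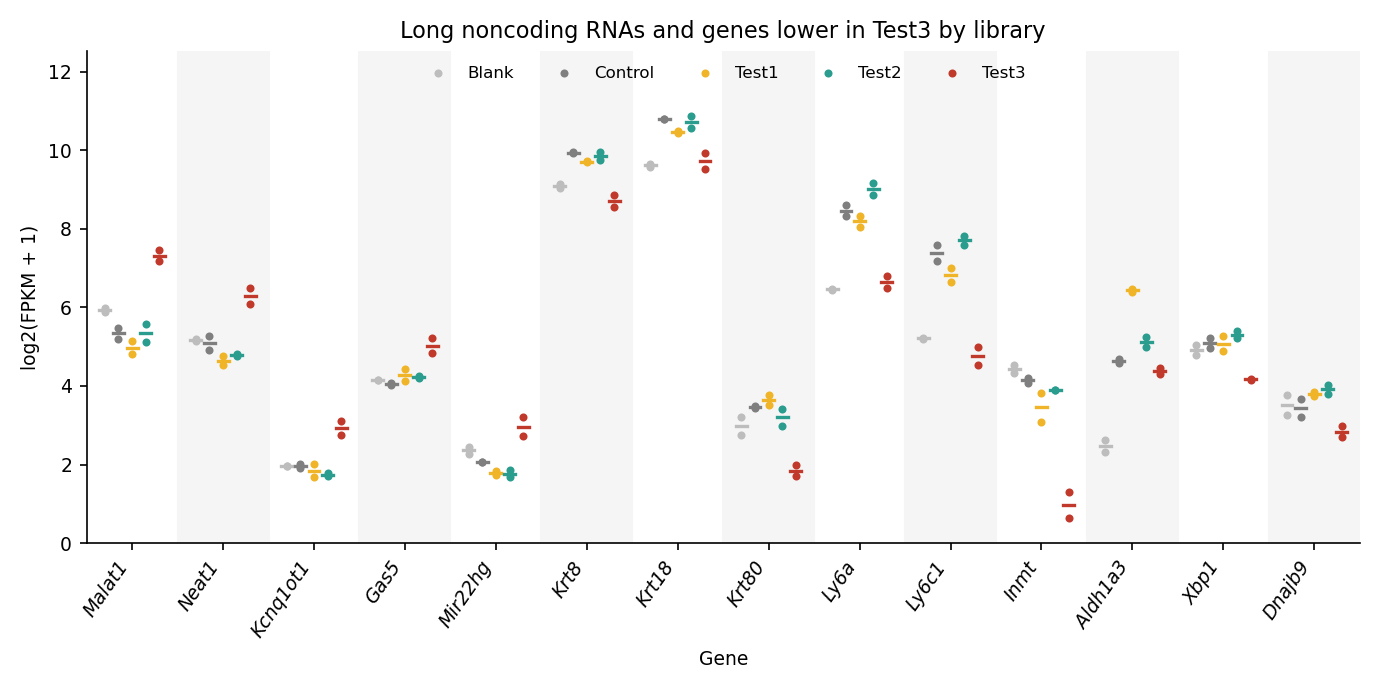
For noncoding RNAs, keratins, Ly6 genes and further lower genes, the points give log2(FPKM + 1) of every library in the tags Blank, Control, Test1, Test2 and Test3 (2 libraries each), and the bar is the mean of the 2. Malat1 and Neat1 lie highest in Test3, and Krt8, Krt80, Ly6c1 and Inmt lowest in Test3.

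Proliferation and growth arrest genes, which bear on whether the T cell supernatants halt the tumor cells, held few called members. Of 40 tested DNA replication genes 1 was lower and of 38 mitosis genes 1 was higher, both calls that were lost without single libraries. Of 11 tested genes of cell cycle arrest none was called. The mitosis genes leaned higher, with 31 positive differences and a median of 0.176. For 16 of the 38 both Test3 libraries lay above the 4 others, beside 14.3% of all tested genes. The DNA replication genes had a median of -0.042, with 26 negative differences. These leanings were not tested. Mki67, the proliferation marker, was at 127 and 107 FPKM in Test3, between 56.9 and 92.8 in the 4 others, and between 111 and 166 in Control and Blank (0.60, SE 0.18, adjusted p = 0.112). Cdkn1a, the p21 inhibitor of cyclin-dependent kinases, was at 94.6 and 75.1 FPKM in Test3 and between 49.8 and 65.0 in the others (0.58, SE 0.14, adjusted p = 0.0599). Neither gene had overlapping ranges, and neither passed the threshold. Of 30 tested p53 targets, 4 were higher and 2 lower (median 0.28). Only Fas, which is also counted in the TNF receptor superfamily, stayed called whichever library was left out. Trp53 itself was at 110 and 133 FPKM against 85.7 to 124 (0.16, SE 0.15, adjusted p = 0.598).

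Stress and metabolic lists held few called genes. Of 31 tested genes of the unfolded protein and ATF4 response 4 were lower, of which Xbp1 stayed called whichever library was left out. Xbp1, a transcription factor of the endoplasmic reticulum stress response, was at 17.0 and 16.9 FPKM in Test3 against 28.7 to 40.8 in the others (-1.03, SE 0.14, adjusted p = 0.00761; 0.0854 against Test1 alone). Of 27 tested antioxidant genes of NRF2, 4 were lower, and none of the 4 kept its call whichever library was left out (Nqo1 had an adjusted p of 0.0544 without Test2-1). None of 42 oxidative phosphorylation subunits was called (median -0.18), nor any of 18 heat shock genes or 29 lysosomal genes. Nos2, the inducible nitric oxide synthase, was at 191 and 218 FPKM in Test3, 145 and 178 in Test1, 132 and 153 in Test2, and between 2.47 and 16.1 in Control and Blank. Test3 lay above the other test libraries for Nos2 without passing the threshold (0.43, SE 0.15, adjusted p = 0.148).

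**Figure D5:**
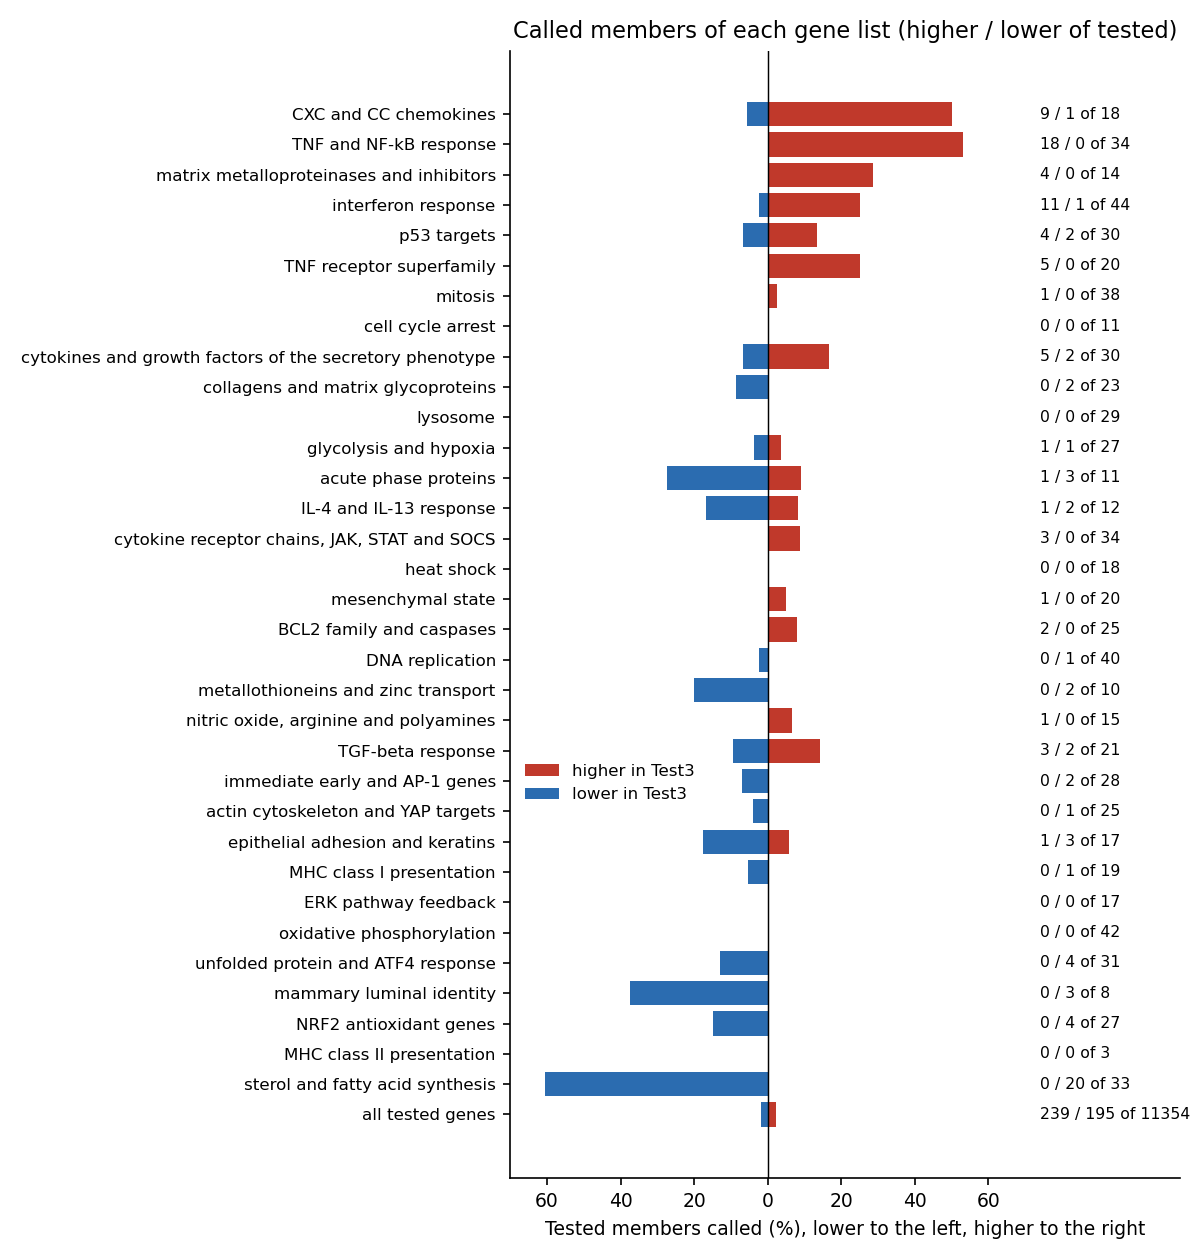
Bars give the percentage of tested members of each gene list, other than the 14 genes the study chose, that were called lower in Test3 (left) or higher in Test3 (right), with the counts beside them and all 11354 tested genes in the bottom bar. The NF-kB list (18 of 34) and the chemokines (9 of 18), which share members, have the longest of these bars to the right. Sterol and fatty acid synthesis (20 of 33) has the longest to the left.

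In the plot of the lists, the bars for most lists stayed short on both sides. The longer bars of small lists rest on few genes: 3 of 8 luminal identity genes were lower (Krt8, Krt18 and Aldh1a3), of which Aldh1a3 stayed called whichever library was left out, and 3 of 11 acute phase genes were lower while 1 was higher, and none of these 4 kept its call whichever library was left out.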

How the data were processed

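RNA of the PyMt line was sequenced at BGI, and per the labels Bowtie was used with mm10. The authors deposited 1 table of FPKM with 1 column per library, without read counts, and for the program that computed FPKM, its annotation and the handling of reads that fit several genes the entry is "not given in the sources used here". Count-based tests are named in the study's methods, and limma was used because the values are FPKM. Tags and groups came from the sample titles. Of 17171 genes, 17113 were matched by gene number to RefSeq (GRCm38.p6), and 24 symbols that had been turned into dates were restored. A pseudocount of 1 was added before taking log2, and 11354 genes with an FPKM of at least 1 in at least 2 of the 6 test libraries were fitted with limma 3.58.1 in R 4.3.3 (means of Test1, Test2 and Test3, contrast Test3 minus the mean of Test1 and Test2, eBayes with trend, two-sided, Benjamini-Hochberg adjustment over all tested genes, threshold 0.05). The fit has 3 residual degrees of freedom among libraries. An exact permutation of 2 against 4 libraries has 15 splits and a smallest p of 0.0667, so it cannot reach the threshold and was not used.

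Depth was estimated from the spacing of low FPKM values and came to between 11250000 and 15200000 reads a library. Data with known log2 changes were simulated with independent normal noise, Test1 and Test2 equal, and no trend with GC content or length. In these data the fit called 9% of genes given a change of 0.5, 70.1% of those given 1 and 98.5% of those given 2. There were 6 false calls.

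Named genes were the 12 genes that rose most and the 12 that fell most of those called without overlap at 5 FPKM or more in at least 2 libraries, up to 5 called members of each gene list by size (or the 2 most abundant members where none was called), the study's 14 secretory genes and some receptors and cell cycle genes. Nfkbia, Tnfaip3, Birc3, Serpinb2, Neat1, Cxcl9, the further sterol genes and the genes of the last section outside the lists were chosen after their values were seen. Some genes that the rule names are not reported here. The comparison, the gene lists and their members were chosen with earlier results of these data known. Promoters were searched with Python 3.11.15 in the RefSeq promoter table, where a missing gene was left out. The alternatives were 0.1 and 5 as pseudocounts, no filter and a filter at 5 FPKM, 3 scalings, removal of the trend with GC content and length, 2 groups, all 10 libraries, set means as the unit, no trend, a replicate block, each library left out, Test1 or Test2 alone, and a threshold of 0.01.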

Additional observations from a re-analysis of the deposited data

How the results depend on the processing

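None of the 87 called named genes changed sign in any alternative, while uncalled ones such as Ifngr1 crossed 0 (-0.13 to 0.22), and 26 of the 87 kept their calls in all 21 alternatives at the threshold of 0.05. Of 239 higher and 195 lower genes with 134 called against both other tags, there were 123, 63 and 40 without the filter on low values, 382, 424 and 242 with the trend on GC content and length removed (11198 genes, in which 210 and 188 of the original calls were kept), and 404, 354 and 247 with all 10 libraries in the fit. With Test1 and Test2 as 1 group 117 were lower, and with the means of the tags as the unit 110 were lower. Against Test1 alone 51 were higher and 28 lower. At a threshold of 0.01, 78 were higher, 44 lower and 40 called against both. Leaving out 1 library gave 91 to 284 higher, 48 to 234 lower and 39 to 212 called against both. The stricter threshold lowers the counts by construction, and the causes of the other shifts were not tested. Replicate numbers did not pair the libraries (correlation of deviations -0.19 for Test1 and Test2, 0.259 for Test1 and Test3, -0.252 for Test2 and Test3), and a fit with a replicate block called 185 higher, 127 lower and 81 against both. In the simulated data, changes of 0.5 on the log2 scale were mostly not called. Depth was not part of that simulation.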

Other observations

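Genes outside the lists, chosen after their values were seen, also set Test3 apart. Fst, which binds and blocks activins, was at 57.8 and 41.9 FPKM in Test1, 37.9 and 30.9 in Test2, and 122 and 113 in Test3 (log2 difference 1.496, SE 0.16, adjusted p = 0.00224 from limma). Tlr2, a receptor for bacterial lipoproteins, was at 19.8 and 21.9 FPKM in Test3 and between 8.73 and 10.0 in the 4 others (1.08, adjusted p = 0.00298). Irg1, the enzyme that makes itaconate and is best known from macrophages, was at 32.3 and 33.8 FPKM against 12.3 to 15.9 (1.15, adjusted p = 0.00224), while in Control and Blank it was between 0.35 and 1.96. Ubd, a ubiquitin-like protein that TNF and interferon gamma induce, was at 133 and 157 FPKM against 25.3 to 48.3 (1.95, adjusted p = 0.000482). These 4 genes were called in each alternative at the threshold of 0.05.

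Immune receptors usually described in leukocytes were detected in these cells. Gp49a was at 17.3 and 19.6 FPKM in Test3 and between 2.13 and 4.76 in the 4 others (2.07, SE 0.23, adjusted p = 0.00242), and Lilrb4 at 34.6 and 44.8 FPKM against at most 17.6 (1.26, SE 0.14, adjusted p = 0.00242). The pair are close copies, and the files cannot show how reads were split between them. The summed leukocyte markers were at 0.51 FPKM in both Test3 libraries and at most 0.07 FPKM in the others, and their part in these levels was not tested.

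Aldh1a3, which makes retinoic acid, was at 82.7 and 87.9 FPKM in Test1, 30.6 and 36.7 in Test2, and 18.6 and 21.0 in Test3 (-1.39, SE 0.13, adjusted p = 0.00114). Its call was lost with Test1 and Test2 as 1 group (0.115) or with the means of the tags as the unit (0.0762).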
